A study of Mus musculus with 11 samples.

Results

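A set of 2216 regions was open in the esophageal cells of wild-type mice and closed in the cells of both mouse lines that carry an activated Smoothened. They were chosen by 1 rule. The open intervals of all 11 libraries on chromosomes 1 to 19 and X were merged into 124941 regions, and a member had an interval in 3 of 3 WT libraries and in 0 of the 6 libraries of K5SmoM2 and K5SmoM2Sox9cKO. Members were 1.77% of all regions and 3.8% of the 58253 regions open in 3 of 3 WT libraries. Because the members were selected on the contrast with WT, their absence from the SmoM2 lists is the definition of the set and is not a result.

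Open chromatin was mapped by ATAC-seq, a method that uses a transposase to tag the accessible DNA of isolated nuclei. K5SmoM2 mice (3 libraries, strain CD1, genotype Krt5-SmoM2) carry SmoM2, an activated Smoothened, in a line named for Krt5, a keratin of basal cells of squamous epithelium. Their cells were sorted for high EpCAM, an epithelial adhesion protein, and the labels do not describe the driver further. K5SmoM2Sox9cKO mice (3 libraries, Krt5-SmoM2-Sox9fl/fl, strain not stated) carry the same SmoM2 with a floxed Sox9, and their cells were also sorted for high EpCAM. Embryo is esophagus of embryonic day 13 (2 libraries, Krt8YFP, sorted on YFP), and its lists were not used to choose members. WT cells (3 libraries, strain CD1, wild type) were sorted for low EpCAM. Genotype and EpCAM gate therefore cannot be told apart in any value that sets WT beside the SmoM2 groups. The labels give no ages for the adult mice, and they do not say whether replicates are separate animals or pools, so all spreads below are between libraries and may be technical.

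Hedgehog ligands release Smoothened from its inhibitor Ptch1, and active Smoothened drives the Gli transcription factors. SmoM2 signals without ligand. Sox9 is a transcription factor of many progenitor and appendage cells. In adult tissue, regions of open chromatin far from gene starts are often enhancers, which differ between cell types more than promoters do, although an open region alone does not show activity and does not name its target gene.

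Few members lay at promoters, and the sequences printed here show the DNA of some that did. A RefSeq start site (GRCm38.p6) lay in 31 members. They hold the start sites of 32 genes, of which 16 are lncRNA genes. Among genes whose start site lay in a region open in all 9 adult libraries, 1930 of 11933 (16.2%) were lncRNA genes. Over all windows in the promoter table, 9533 of 27025 (35.3%) were, so the contrast with all windows is smaller. The 250 bases upstream of 4 of the starts in members are printed 5′ to 3′ on the gene's strand, each lying whole inside a member. Capitals mark matches to the short motifs searched on both strands, except the E-box CANNTG, which is left in lower case and occurred in 22 of 32 member windows (68.8%), against 56.5% of windows in kept regions and 66.0% of all windows. Gm36544, a lncRNA gene, is shown because its member had the highest WT rank of the 31 (chr2:106547059-106547308, plus strand). Coq8a, a kinase-like protein of coenzyme Q synthesis (chr1:180193486-180193735, minus strand), and the lncRNA gene Gm36201 (chr17:67629333-67629582, minus strand) each hold an AP-1 motif beside a nuclear receptor motif. Scn2a, a sodium channel of neurons (chr2:65668436-65668685, plus strand), is shown because its member was also open in both Embryo libraries. That member lies inside the gene body, 47499 bp from the nearest gene end, so the start printed for Scn2a is an internal one.
Gm36544: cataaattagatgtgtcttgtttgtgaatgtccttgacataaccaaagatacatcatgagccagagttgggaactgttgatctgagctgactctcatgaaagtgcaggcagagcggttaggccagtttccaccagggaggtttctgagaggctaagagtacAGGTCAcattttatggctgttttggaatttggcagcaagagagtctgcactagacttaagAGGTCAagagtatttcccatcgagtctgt
Coq8a: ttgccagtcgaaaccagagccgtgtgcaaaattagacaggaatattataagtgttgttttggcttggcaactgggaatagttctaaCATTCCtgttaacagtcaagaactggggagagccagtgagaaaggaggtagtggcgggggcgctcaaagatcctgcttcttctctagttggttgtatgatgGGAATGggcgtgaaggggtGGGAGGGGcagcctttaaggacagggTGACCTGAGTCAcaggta
Gm36201: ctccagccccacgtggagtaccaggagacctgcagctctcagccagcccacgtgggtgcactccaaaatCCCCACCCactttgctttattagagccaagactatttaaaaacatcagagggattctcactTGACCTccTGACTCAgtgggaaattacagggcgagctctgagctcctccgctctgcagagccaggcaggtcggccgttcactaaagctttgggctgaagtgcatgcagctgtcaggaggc
Scn2a: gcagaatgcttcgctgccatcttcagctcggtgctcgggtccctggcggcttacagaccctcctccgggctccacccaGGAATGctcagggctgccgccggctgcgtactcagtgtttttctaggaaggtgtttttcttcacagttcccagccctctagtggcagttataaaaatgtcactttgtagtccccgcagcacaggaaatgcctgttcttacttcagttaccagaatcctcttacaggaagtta

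The upstream windows of the 32 genes had a GC content between 39.6% and 64.0% and a median below that of kept regions, which was 60.8%, and below the 52.0% of all 27025 windows in the table. A window held a median of 5 CG dinucleotides, against 16 and 6. Member windows were thus poorer in GC than those of regions kept open. The nuclear receptor motif AGGTCA occurred in 9 of 32 member windows (28.1%), against 9.86% of windows in kept regions and 13.8% of all windows. The AP-1 motif TGANTCA occurred in 6 of 32 (18.8%), against 4.95% and 6.87%. In Coq8a, the AP-1 match lies 13 bases and the nuclear receptor match 18 bases before the start. Gm36201 and Gm52321 start from the same member on opposite strands, so 1 pair of these matches counts in both. The KLF/SP motif GGGNGGGG occurred in 10 of 32 member windows (31.3%), against 46.1% of windows in kept regions and 30.5% of all windows. The GATA motif AGATAA occurred in 6 of 32 (18.8%), against 4.98% and 10.3%. Not all of the 32 windows lay whole inside a member, so the motif shares also count DNA outside members. The GATA matches of Gm36377 and Ces1h, for example, lie outside their members. The GLI motif TGGGTGGTC, the ETS motif CCGGAAG, the FOX motif TGTTTAC, the Grainyhead motif AACCNGGTT and the p63 and CTCF motifs had no match in the 32 windows. In kept regions and in all windows, ETS had 13.1% and 7.05%, FOX 2.05% and 3.09%, and GLI 0.151% and 0.211%. Grainyhead, p63 and CTCF had at most 0.507% in either. For motifs as rare as GLI, the lack of a match in 32 windows says little. With 32 windows these shares are descriptions, and a match is not a bound site.

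Members can be set beside the regions closed in each SmoM2 group. Of the 3887 regions open in 3 WT and closed in 3 K5SmoM2 libraries, 2216 (57.0%) were closed in all 3 K5SmoM2Sox9cKO libraries too, 865 were open in 1 of them, 498 in 2 and 308 (7.92%) in 3. Of the 3355 regions open in 3 WT and closed in 3 K5SmoM2Sox9cKO libraries, the same 2216 (66.1%) were closed in all 3 K5SmoM2 libraries and 186 (5.54%) were open in 3. The SmoM2 groups share the WT libraries in these counts, so the overlap is a description and not a measure of shared change. The opposite pattern, open in all 6 SmoM2 libraries and closed in 3 of 3 WT, held 3877 regions, 3.1% of all regions.

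Just outside the rule, 1475 regions were open in 3 of 3 WT and in a single SmoM2 library. Of these, K5SmoM2 libraries 1, 2 and 3 accounted for 99, 201 and 310, and K5SmoM2Sox9cKO libraries 1, 2 and 3 for 456, 123 and 286. In that library the region was weak, with a median rank percentile between 9.54 and 13.8 of its list (100 is the strongest interval by the authors' −log10 p). A further 2896 regions were closed in all 6 SmoM2 libraries and open in just 2 WT libraries, of which 1587 were missing from WT 1, 553 from WT 2 and 756 from WT 3. WT 1 had the shortest adult list. The set grew to 3803 regions when WT 1 was left out of the rule, the only adult library whose omission moved the count by more than 1.5 times.

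Leaving out 1 library at a time recasts the counts above as shares. Regions chosen on the other 8 libraries were open in the left-out library in 4.28%, 8.32% and 12.3% of cases for K5SmoM2 1, 2 and 3, in 17.1%, 5.26% and 11.4% for K5SmoM2Sox9cKO 1, 2 and 3, and in 58.3%, 80.0% and 74.6% for WT 1, 2 and 3. Each WT library lay above each SmoM2 library. For a left-out SmoM2 library the open regions are those counted above (99 to 456). For a left-out WT library they are the 2216 members. The shares thus come from the calls that the rule used and are no independent check. No share of other regions stands beside them, and no test was made, since each share lies within 1 list.

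**Figure D1:**
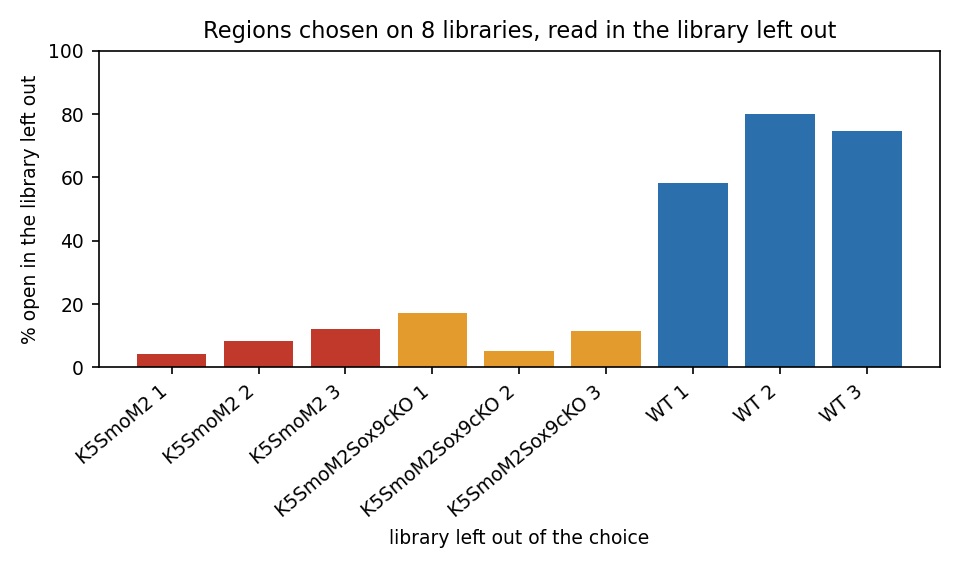
Bars give the percentage of regions open in a library (vertical axis, 0 to 100) when that library (horizontal axis) was left out of the rule and regions were chosen on the other 8. The 6 SmoM2 libraries lie between 4.28% and 17.1%, and the 3 WT libraries between 58.3% and 80.0%. The shares come from the same calls as the rule.

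Members were weaker in WT cells than regions that stayed open. Their median rank percentile within the WT lists was 28.7 ± 2.44, against 68.7 ± 2.32 for regions open in all 9 adult libraries (mean ± SD of 3 WT libraries). The authors' fold enrichment had a median of 4.16 ± 0.184 in members and 6.24 ± 0.618 in kept regions. Member intervals were 474 ± 4.58 bp wide, against 843 ± 29.1 bp. Regions open in 3 of 3 WT and in 1, 2 or 3 of the 6 SmoM2 libraries were nearly as weak as members, with median percentiles of 31.6, 30.4 and 32.9 against 28.9 for members. Regions closed in 3 K5SmoM2 and open in 3 K5SmoM2Sox9cKO libraries stood at 36.3 ± 2.03, and those closed in 3 K5SmoM2Sox9cKO and open in 3 K5SmoM2 libraries at 33.8 ± 4.08 (mean ± SD of 3 WT libraries). The intervals of WT lists entered the rule, so these values describe the set. A weak region is also more easily missed in a list, and how far this made members was not tested. Among regions open in 3 of 3 WT, placed in 10 equal bins by WT rank, members were 14.6% of bin 1 (the weakest), 5.89% of bin 3, 2.30% of bin 5, 0.584% of bin 7 and 0 of 5826 regions in bin 10, which allows a share of up to 0.0659% (Wilson). Still, 316 members (14.3%) ranked at or above the 50th percentile and 27 at or above the 75th.

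**Figure D2:**
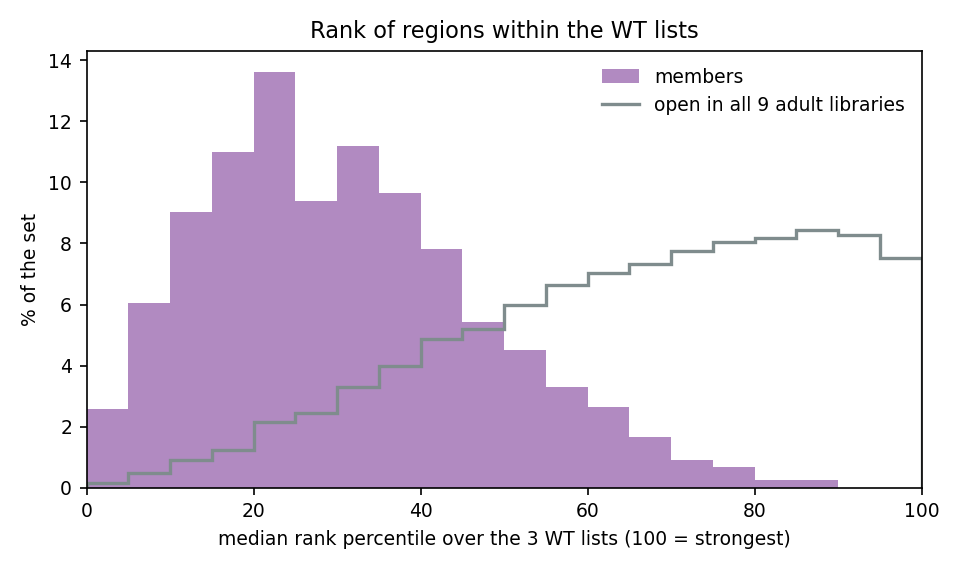
The horizontal axis is a region's median rank percentile over the 3 WT lists (100 is strongest) and the vertical axis the percentage of each set in bins of 5 percentiles, filled for the 2216 members and outlined for the 44519 regions open in all 9 adult libraries. Members gather at low ranks around a median of 28.9, while the share of kept regions climbs towards high ranks.

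The strongest members lay inside genes and far from them. The member with the best median rank, chr4:46321457-46322528 in the predicted gene Gm12447, stood at the 89.8, 81.3 and 88.9 percentiles of WT 1, 2 and 3. Next came chr10:6814161-6815377, inside Oprm1, the mu opioid receptor gene, at the 88.1, 91.1 and 85.9 percentiles, with enrichments of 9.02, 10.6 and 8.46 fold. These levels lie in the upper part of each WT list, and the nearest interval of any SmoM2 library was 260779 bp away. Other members in the top 10 lay inside Amotl1, an angiomotin family scaffold gene (chr9:14579708-14580531), Fer, a tyrosine kinase gene (chr17:63994704-63995845), Ptprg, a receptor phosphatase gene (chr14:12069600-12071609), and Asgr1, a lectin receptor gene (chr11:70052270-70052954). The remaining 4 lay outside protein-coding gene bodies, 3 of them at least 312183 bp away. One of these, chr11:9997054-9998347, belongs to the longest run of neighbouring members. That run held 6 members over 71479 bp (chr11:9958775-10030253) with no other region occupied in adult cells between them. In all, 290 members lay in 133 such runs of 2 or more.

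Members lay far from gene ends. A start site lay in 31 of 2141 members (1.45%, 95% Wilson interval 1.02% to 2.05%, chromosome 18 not used), against 10488 of 43022 regions open in all 9 adult libraries (24.4%). Intervals on shares cover counting error only. Within 1 kb of an end of a protein-coding gene were 85 members (3.84%, interval 3.11% to 4.72%), against 27.3% of regions open in all 9 adult libraries and 13.6% of all regions. In a gene body lay 1122 members (50.6%), against 63.9%, and more than 100 kb from any gene body 333 (interval 13.6% to 16.6%), against 6.89%. The median distance to the nearest gene end was 29122 bp, against 11092 bp. The opposite pattern had nearly the same positions as members, with 3.61% within 1 kb of a gene end, 50.9% in a gene body and 16.2% beyond 100 kb, and all 3 of its intervals overlap those of members.

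Of the members at gene ends, the best ranked lay in Cmpk2, a mitochondrial nucleotide kinase gene (chr12:26478097-26479041; 68.2, 61.8 and 72.0 percentiles in WT 1, 2 and 3). Rerg, a Ras-related growth inhibitor gene, was next (chr6:137054936-137055451; 50.7, 75.5 and 67.9 percentiles). Epithelial cytokine genes appear further down, with chr1:130911309-130912099 lying 13 bp from Il20 and chr2:129300564-129301455 in Il1a, the gene of interleukin-1 alpha, at a median percentile of 51.4. The others of the 10 best lay at Hipk3, Stac, Ccdc181, Chst4, Pnliprp2 and 1700014D04Rik.

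Members were seldom open in the embryonic esophagus. An interval of Embryo 1 overlapped 48 members (2.17%) and one of Embryo 2 overlapped 17 (0.767%), and 56 (2.53%, interval 1.95% to 3.27%) were open in either library. Regions open in all 9 adult libraries were open in either Embryo library in 38.1% of cases, and the opposite pattern in 4.95% (4.31% to 5.68%). WT regions closed in 3 K5SmoM2 and open in 3 K5SmoM2Sox9cKO libraries stood at 3.57% (2.01% to 6.28%), an interval that overlaps that of members. WT regions closed in 3 K5SmoM2Sox9cKO and open in 3 K5SmoM2 libraries stood at 10.2% (6.64% to 15.4%). The Embryo lists were short, with 24902 and 14255 intervals, so the shares were also read at equal WT rank and away from genes. Among regions more than 1 kb from a gene end, the share open in Embryo was 2.45% of members and 12.2% of kept regions in rank bin 1, 2.37% and 15.5% in bin 3, and 3.15% and 18.2% in bin 5. In each of bins 1 to 6 the 95% intervals of members and kept regions did not overlap. The part of the different cell sorts in this difference was not tested.

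**Figure D3:**
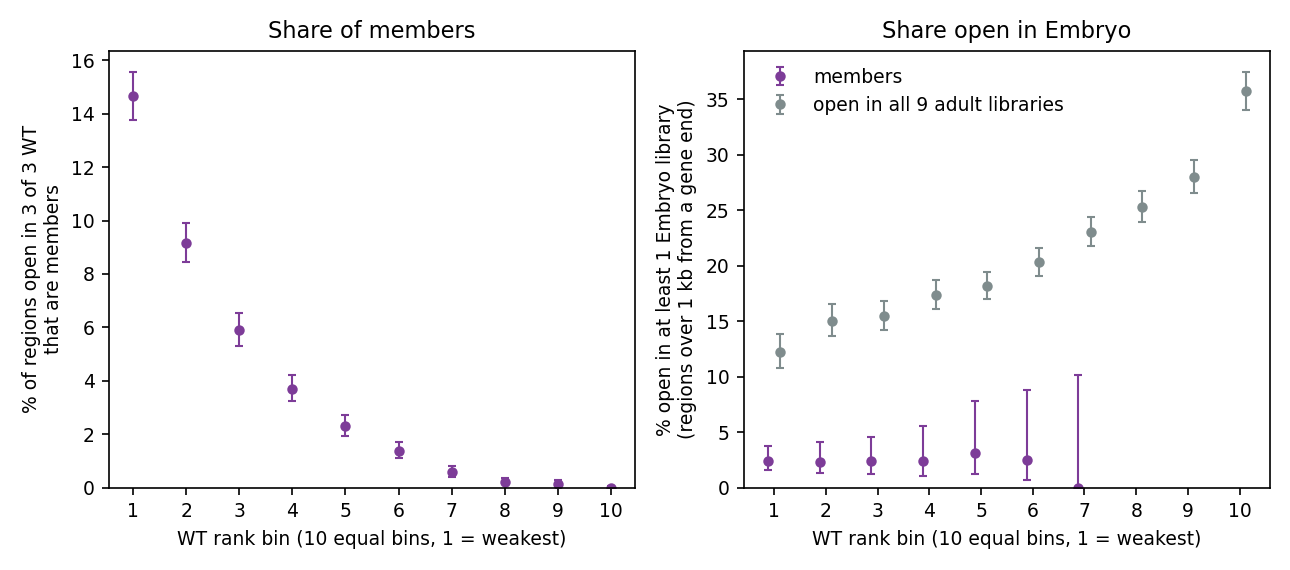
Left, the percentage of regions open in 3 of 3 WT that are members (vertical axis) in 10 equal bins of WT rank (horizontal axis, 1 is weakest). Right, the percentage open in at least 1 Embryo library among regions over 1 kb from a gene end, for members (bins 1 to 7) and regions open in all 9 adult libraries; bars are 95% Wilson intervals. The share of members drops from bin 1 (14.6%) to bin 10 (0), and the Embryo share of members lies between 0 (bin 7, 34 members) and 3.15% (bin 5) while that of kept regions is 12.2% in bin 1 and 35.8% in bin 10.

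The 9 members open in both Embryo libraries included chr19:58419453-58420433 in Gfra1, a co-receptor for glial cell line-derived neurotrophic factor. It stood at the 62.7, 76.5 and 76.6 percentiles in WT 1, 2 and 3 and had 5.36 and 3.08 fold enrichment in Embryo 1 and 2. Others lay in Mgat5, Slc44a3, Ptpn21, Cryzl1, in Scn2a, at the start of Epb41l3, and 33724 bp from Dlk1, a Notch-related ligand gene.

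Members were spread over many genes. Assigning each region to the nearest protein-coding gene within 100 kb gave 1490 loci with at least 1 member, 8.45% of the 17625 loci with a region open in adult cells. Of these, 1228 had 1 member, 184 had 2 and 78 had 3 or more. Such loci were large, with a median of 11 regions open in adult cells against 3 over all loci, and gene bodies of 59.5 kb against 21.9 kb (medians). Loci with 1 to 5 regions held a member in 3.24% of cases, and loci with 41 or more regions in 50.6%. Regions of the opposite pattern lay at 24.3% of loci with a member and 12.6% of all loci, but at loci of 11 to 20 regions they lay at 29.2% of those with a member and 36.1% of those without.

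Rora held the most members, 11. It encodes a nuclear receptor that binds DNA as a monomer and is known from circadian rhythm and cerebellar development in mice. The locus had 14, 18 and 18 occupied regions in K5SmoM2 libraries 1, 2 and 3, 29, 21 and 23 in K5SmoM2Sox9cKO libraries, and 42, 51 and 49 in WT libraries. The 3 groups did not overlap, also with members not counted (31, 40 and 38 in WT), and 10 of its 65 regions were open in all 9. The locus was chosen for its members, and how many of all loci separate in this way was not counted. The 11 members lay within the gene body (chr9:68653404-69388246) and the locus had no region of the opposite pattern. The strongest, chr9:68922643-68923900, stood at the 84.5, 70.0 and 75.3 percentiles of the WT lists, and the weakest by median, chr9:69056371-69056818, at 23.0, 15.3 and 7.54.

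**Figure D4:**
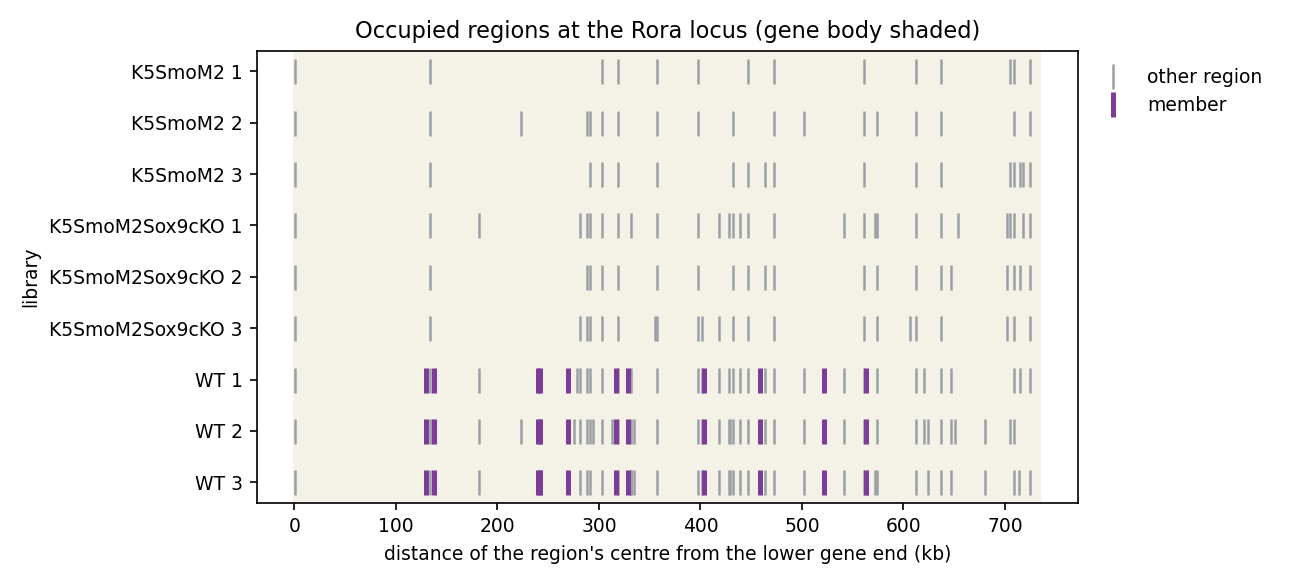
Each row is an adult library and each tick an occupied region, placed by the distance of its centre from the lower end of the Rora gene (kb; gene body shaded), with members in purple and other regions in grey. The 11 members are seen in the 3 WT rows, among other regions of which 10 are open in all 9 libraries.

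Oprm1 and Cdh19 had no region in any SmoM2 library. Oprm1 had 0 in each of the 3 K5SmoM2 and the 3 K5SmoM2Sox9cKO libraries and 5, 6 and 7 in WT, and 5 of its 7 regions were members. Cdh19, a cadherin gene known from Schwann cell precursors, had 0 in the same 6 libraries and 5, 5 and 4 in WT, with 4 members. The nearest SmoM2 interval lay 949733 bp or more from each Cdh19 member. Absence from a list sets no limit on the signal below the caller's threshold. Among 9521 loci with at least 2 regions open in 3 of 3 WT, 6 had nothing but members among them. Besides Oprm1 and Cdh19 these were Ccl9, a chemokine gene, Pnliprp2, a pancreatic lipase-related gene with 0 in all 6 SmoM2 libraries and 3, 2 and 3 in WT, Cct6b and Tdpoz8.

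The other loci with most members mixed member and kept regions. Each member adds 1 region to every WT count and none to the SmoM2 counts by the rule, so part of the WT excess in these totals is fixed by the choice. How many of all loci show such an excess was not counted, with or without members. Ctnnd2, delta-catenin of neuronal junctions, held 7 members, with 5, 4 and 5 regions in K5SmoM2, 6, 7 and 6 in K5SmoM2Sox9cKO, and 15, 20 and 19 in WT. Prickle2, a planar cell polarity gene, held 6, with 8, 11 and 8 in K5SmoM2, 10, 11 and 10 in K5SmoM2Sox9cKO, and 19, 23 and 22 in WT. Tgfb2, a TGF-beta ligand gene, held 4, with 7, 8 and 9 in K5SmoM2, 8, 7 and 6 in K5SmoM2Sox9cKO, and 14, 15 and 14 in WT. In these 3 loci each WT library lay above each SmoM2 library, also with members not counted, when WT had 8, 13 and 12 regions at Ctnnd2, 13, 17 and 16 at Prickle2, and 10, 11 and 10 at Tgfb2. Fras1, a basement membrane gene, held 4 members, with 7, 7 and 9 regions in K5SmoM2, 8, 6 and 5 in K5SmoM2Sox9cKO, and 18, 18 and 17 in WT. Plet1, a gene of an epithelial surface protein, held 4 in the DNA around its short body, with 10, 10 and 12 in K5SmoM2, 11, 9 and 12 in K5SmoM2Sox9cKO, and 17, 16 and 19 in WT. Gfra1 had 2, 2 and 2 in K5SmoM2, 2, 2 and 4 in K5SmoM2Sox9cKO, and 11, 8 and 11 in WT. Without members, WT had 14, 14 and 13 regions at Fras1, still above the SmoM2 libraries, while at Plet1 (13, 12 and 15) and Gfra1 (7, 4 and 7) WT then touched their range.

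At 3 loci with many members WT did not stand above K5SmoM2 in total. Macrod2, a hydrolase gene of ADP-ribose, held 7 members and 3 regions of the opposite pattern, with 52, 35 and 39 regions in K5SmoM2, 29, 31 and 26 in K5SmoM2Sox9cKO, and 36, 46 and 38 in WT. Sdk1, a neuronal adhesion gene, held 6 members and 3 opposite regions, with 25, 20 and 28 in K5SmoM2, 21, 27 and 18 in K5SmoM2Sox9cKO, and 18, 25 and 22 in WT. Plcb1, a phospholipase gene, held 5 and 4. At these loci the ranges of WT and K5SmoM2 overlapped. In the other 17 of the 20 loci with most members, the lowest WT library lay above the highest SmoM2 library, which the choice of loci favours. With members not counted this held at 6 loci, namely Rora, Ctnnd2, Prickle2, Tgfb2, Pde7b and Fras1. The choice of loci can favour WT here too. Neither count was made over all loci, so no background share stands beside them, and whether 6 of 20 is unusual is not known. Loci of the 20 not yet described were Stk39 and Rgs3 (6 members each), Myt1l (5), and Cdyl2, Unc79, Spats2l, Opcml and Pde7b (4 each).

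**Figure D5:**
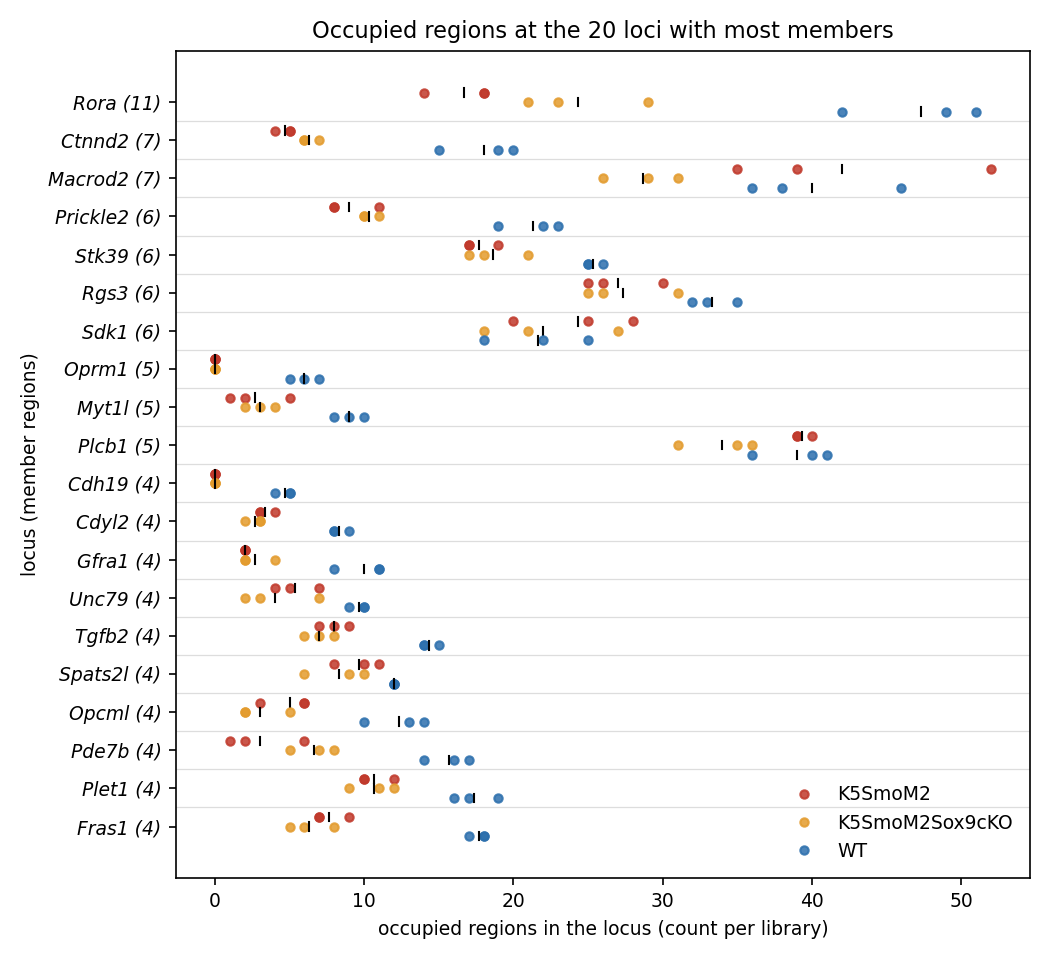
The horizontal axis counts occupied regions per library at the 20 loci with most members (vertical axis, number of members in brackets), with a point for each library, colour for the group and a black tick for the group mean. WT points, which count the members, lie to the right of both SmoM2 groups at 17 loci (at 6 with members not counted), and at Macrod2, Sdk1 and Plcb1 they overlap K5SmoM2. The loci were chosen for their members, and no share over all loci was made.

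The share of WT regions that were members was read for each gene list, beside 1883 of 53779 regions (3.50%) over all loci, with no test between lists. Receptors for neurotransmitters and neuropeptides had 14 members among 115 regions open in 3 of 3 WT (12.2%), of which Oprm1 held 5 and Grin3a, an NMDA receptor subunit gene, 2. Nuclear receptors had 22 of 248 (8.87%), 11 of them at Rora and 4 at Thrb, the thyroid hormone receptor beta gene, so 1 locus held much of this count. Esr1, the estrogen receptor alpha gene, and Nr3c1, the glucocorticoid receptor gene, held 2 each. Ion channels had 17 of 316 (5.38%), with 4 at Piezo2, a mechanosensory channel gene, and 4 at Cacna2d3, and axon guidance genes had 21 of 393 (5.34%), with 4 at Sema5a and 3 each at Plxna4, Nrp1 and Sema6d. Cadherins and protocadherins had 8 of 156 (5.13%), 4 of them at Cdh19. These lists were chosen with earlier results of the same data known.

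Signaling lists ranged from below to above the value over all loci. Hedgehog genes had 8 members among 164 regions (4.88%) at 7 of 31 loci, BMP and TGF-beta genes 14 of 327 (4.28%), receptor kinase genes 12 of 291 (4.12%), and Wnt genes 8 of 301 (2.66%), of which Ror1, a Wnt co-receptor gene, held 3. Notch genes had 1 of 169 (0.592%), at Numb. Basal keratinocyte genes had 4 of 231 (1.73%) and squamous differentiation genes 6 of 246 (2.44%), at single regions of genes such as Lor and Sprr1b, which encode cornified envelope proteins, and Dsg3, a desmosomal cadherin. AP-1, KLF, RUNX and TEAD factor genes had 3 of 259 (1.16%), and retinoid, xenobiotic and lipid metabolism genes 2 of 206 (0.971%). Housekeeping genes had 0 of 71. Patterning factors had 11 of 292 (3.77%), with 2 each at Hand2 and Irx3. The shares of the other gene lists, cell type markers aside, were 2.97% for hair follicle and basal cell carcinoma genes, 3.13% for cell cycle genes, 2.31% for matrix genes, 2.13% for Sox genes and 1.95% for foregut and columnar genes.

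Of the 12 fixed genes of the pathway and of epithelial identity, 3 held members, 4 of 79 regions open in 3 of 3 WT (5.06%). Ptch1, the Hedgehog receptor and a Gli target, held 2 members and 3 regions of the opposite pattern, with 13, 12 and 15 occupied regions in K5SmoM2, 13, 15 and 14 in K5SmoM2Sox9cKO, and 8, 11 and 10 in WT. Its intragenic member, chr13:63563153-63565354, was the widest of the set at 2202 bp and was open in Embryo 1. Epcam held 1 member 37051 bp from the gene, with 11, 11 and 10 regions in K5SmoM2, 13, 13 and 15 in K5SmoM2Sox9cKO, and 9, 10 and 9 in WT. Trp63, the p63 gene of squamous epithelium, held 1 of 50 regions, at chr16:25857766-25858410. Sox9, Gli1, Smo, Krt5, Krt14, Sox2, Klf4, Krt8 and Foxa2 held none. Krt14 had 4 to 6 regions in every adult library and Krt5 2 to 4. The Sox9 locus had 10, 12 and 9 regions in K5SmoM2Sox9cKO, against 9, 10 and 11 in K5SmoM2 and 11, 7 and 9 in WT, and such counts do not check the deletion of the floxed exons.

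Because WT cells came from another EpCAM gate, loci of marker genes of other cell types were read beside the members. Of 22 melanocyte, neural crest and Schwann cell markers, 2 held members (Cdh19 with 4 and Hand2 with 2), 6 of 63 regions open in 3 of 3 WT (9.52%, against 3.50% over all loci). The list summed to 78 to 82 occupied regions in K5SmoM2, 72 to 82 in K5SmoM2Sox9cKO and 73 to 93 in WT, or 1.03 ± 0.0768, 1.00 ± 0.025 and 1.18 ± 0.0787 per 1000 occupied regions (mean ± SD, n = 3 each). By the rule, a list's members count in every WT sum and in no SmoM2 sum, here 6 regions, so part of the WT excess is fixed. Cdh19 and S100b were at 0 in both SmoM2 groups, Ednrb in K5SmoM2Sox9cKO alone, and Tyr in K5SmoM2Sox9cKO and WT. Endothelial markers held 3 members (Lyve1, Vwf and Flt1; 4.29% of 70 regions) and summed to 88 to 106, 103 to 105 and 79 to 98 regions in K5SmoM2, K5SmoM2Sox9cKO and WT. Fibroblast markers held 3 (Prrx1, Twist1 and Col1a1; 8.33% of 36 regions) and summed to 60 to 64, 58 to 70 and 50 to 67, with Lum at 0 in all 9 libraries. Muscle markers held 1 (Acta2; 2.04% of 49 regions), with 52 to 73, 53 to 72 and 58 to 67, and markers of lung, liver and brain 1 (Alb; 4.17% of 24 regions), with 32 to 38, 32 to 38 and 29 to 40. The 15 neuron markers held none among 47 regions and summed to 74 to 98, 87 to 98 and 60 to 73, and Dcx and Gap43 were at 0 throughout. Per 1000 occupied regions the neuron list was lowest in WT, with 1.09 ± 0.0758 in K5SmoM2, 1.22 ± 0.0101 in K5SmoM2Sox9cKO and 0.921 ± 0.0376 in WT. The 19 immune markers held none among 14 regions, with sums of 22 to 26, 21 to 26 and 17 to 23, and Ptprc, the pan-leukocyte marker, was at 0 in WT. The 13 Langerhans and dendritic markers held none among 25 regions, with sums of 25 to 34, 27 to 38 and 29 to 33. The part of other cells in the members was not tested, and in bulk samples fewer cells with an open region and less opening per cell cannot be told apart.

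Loss of Sox9 within SmoM2 cells was the contrast that the rule left free, since members are closed on both sides of it. It asks whether the loci that hold members differ in their other regions. Counts of occupied regions per locus were tested with limma, with the 3 adult groups in 1 fit and Benjamini-Hochberg adjustment over 15473 loci. Of all loci 131 (0.847%) passed at 0.05, 64 higher and 67 lower in K5SmoM2Sox9cKO. Of 1416 tested loci with a member 19 (1.34%) passed, 12 higher and 7 lower. This split was not stable, with 5 higher and 5 lower without scaling by the library's total, 2 and 3 with −log10 q of at least 5, 4 and 8 without K5SmoM2 1, 2 and 4 without K5SmoM2Sox9cKO 3, 10 and 11 without K5SmoM2Sox9cKO 1, and 5 and 6 without WT 3. The median log2 change was 0.05 at loci with a member and 0.06 over all loci. In 8 of the 19 both groups averaged at most 2 regions, where a count that is equal in all replicates can give a small p. The filter of a mean of at least 1 region counted WT libraries too, where members are open by the rule. The called loci Grin3a, Six6, Samt3 and Prss54 reached it only with their WT counts. Loci with a member were also larger (median of 11 regions against 3), and size was not matched, so the 2 shares of calls are descriptions. Calls at loci with a member fell to 6 without K5SmoM2Sox9cKO 3, 9 without K5SmoM2 2, 12 without K5SmoM2 1 and 11 without WT 2 or WT 3, and calls over all loci to 28, 49 and 33 without the first 3 of these libraries.

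Slit3, a ligand of axon guidance, was the locus with 3 or more members that passed. It had 33, 33 and 39 regions in K5SmoM2Sox9cKO, against 24, 18 and 21 in K5SmoM2, and 28, 33 and 32 in WT. The K5SmoM2Sox9cKO libraries lay above those of K5SmoM2 and reached or passed WT (log2 change 0.79, SE 0.12, limma adjusted p = 0.0206). The limma adjusted p ran from 0.0103 to 0.176 over the alternatives, and the call was lost with stricter intervals (0.0703), equal lists (0.176), the 6 libraries alone (0.0641), no scaling (0.0958), and without K5SmoM2 2 (0.0699), K5SmoM2 3 (0.0577) or K5SmoM2Sox9cKO 3 (0.0533). Among the other called loci with larger counts, named after their values were seen, Trabd2b, a regulator of Wnt ligands, had 17, 11 and 16 regions in K5SmoM2Sox9cKO, against 5, 3 and 8 in K5SmoM2 and 17, 22 and 20 in WT (log2 change 1.51, SE 0.25, limma adjusted p = 0.0289). Its limma adjusted p ran from 0.00237 with equal lists to 0.245 without scaling. The call was lost with the 6 libraries alone (0.0915), no scaling, and 20 kb around the gene body (0.0551), and without any one of the 3 WT libraries, K5SmoM2 1 or 2, or K5SmoM2Sox9cKO 1 or 3 (0.0525 to 0.107). Syne1, a nuclear envelope gene, had 15, 12 and 15 in K5SmoM2Sox9cKO, against 7, 8 and 8 in K5SmoM2 and 18, 17 and 16 in WT, and its call was lost with stricter intervals, equal lists, and without K5SmoM2 1 or K5SmoM2Sox9cKO 3 (limma adjusted p of 0.186, 0.236, 0.0638 and 0.055, from 0.0103 over the alternatives). At both loci the K5SmoM2Sox9cKO libraries lay above K5SmoM2, although 2 Trabd2b regions and 1 Syne1 region were closed in both. Adamts18, a metalloproteinase gene, moved the other way, with 1, 0 and 0 regions in K5SmoM2Sox9cKO, against 5, 5 and 5 in K5SmoM2 and 5, 6 and 5 in WT (limma adjusted p = 0.0119), a call lost with stricter intervals (0.0934, the highest over the alternatives) and kept in each fit without 1 library. None of the 20 loci with most members passed by limma. Of these, Oprm1 and Cdh19 had 0 regions in every library on both sides of the contrast and could not pass. Rora came nearest, with a log2 change of 0.59 (SE 0.11, limma adjusted p = 0.0614), and its unadjusted p was 0.000588.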

How the data were processed

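ATAC-seq interval lists of 11 libraries were used, 1 list per library. Per the submitters' processing notes, reads were handled with Trimmomatic, Bowtie2, Picard, MACS2 and deepTools on GRCm38/mm10. Their settings are not stated there. Read numbers per library are not known here, which leaves depth unknown. The deposited columns hold the authors' score (not used), fold enrichment (a ratio to background), −log10 p-value and −log10 q-value of each interval. The lowest −log10 q-value in the authors' lists was 1.30. Adult lists held 69026 to 87910 intervals on chromosomes 1 to 19 and X.

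Intervals sharing at least 1 bp were merged into regions, and a library's region was open where its interval overlapped. The strongest summit stood for an interval. Ranks are percentiles of the −log10 p within a list. Genes came from the GRCm38.p6 RefSeq table (21631 protein-coding genes, no strand), and start sites and promoter sequences from the RefSeq promoter table of that build. No genome was used, so motifs were searched upstream of start sites and not at summits. Coordinates are 1-based.

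Members were not tested against WT, since the rule used that contrast. The locus fit used limma 3.58.1 (R 4.3.3, variance trend on) on log2((occupied regions + 0.5)/(total + 1) × 100000), for loci with a mean of at least 1 region over the 9 adult libraries. Both steps were checked on simulated data. Shares carry 95% Wilson intervals. Same-numbered K5SmoM2Sox9cKO and K5SmoM2 libraries were checked for pairing. Members, gene lists and tests were chosen with earlier results of these data known. Loci named are the 20 with most members without predicted genes, up to 4 per list, and 12 fixed genes; regions named are those with the best WT ranks among all members, at gene ends and in Embryo, and the widest. Alternatives changed the interval threshold, list length, chromosomes, merging, region size, the rule's limits, the fit and each library in turn. Some values that these rules cover are not reported here.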

Additional observations from a re-analysis of the deposited data

How the results depend on the processing

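Of 151 alternative values, 117 were counted as unchanged. For counts of regions or loci this allowance was wide. It took in 1578 members with −log10 q of at least 5, against 2216, and 91 called loci without WT 2, against 131. The 117 also include the share open in Embryo with a required overlap of 50%, which could not change. The causes of the moves among the remaining values were not tested. The set held 5112 regions with 2 of 3 WT libraries allowed and 3691 with 1 of 6 SmoM2 libraries allowed, 1578 with −log10 q of at least 5 and 2668 with lists of equal length. Leaving out 1 library gave 2315 to 3803. The share open in Embryo was 0.767% with Embryo 2 alone, 1.14% with the stricter intervals and 3.34% with equal lists (2.36% to 3.08% leaving out libraries). The WT rank percentile was 22.4 with 2 of 3 WT libraries allowed and 24.3 to 29.4 leaving out libraries. Interval width was 629 bp with stricter intervals, 522 bp with equal lists, 407 bp with 2 of 3 WT, 480 bp with 1 of 6 allowed, 501 bp with fixed windows by construction, and 407 to 480 bp leaving out libraries. The shares within 1 kb of a gene end (3.68% to 4.52% leaving out libraries) and in a gene body (50.4% to 51.4%) moved little.

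In the locus fit, 214 loci passed with no filter, 55 with a mean of at least 3 regions, 39 with stricter intervals (8 of them among the 131), and 28 to 169 leaving out libraries. With equal lists 166 passed, 35 of them among the 131, and 25 with a member, 2 of them among the 19. Loci with a member passed in 12 cases with the 6 libraries alone, 10 without scaling, 5 with stricter intervals (0 of them among the 19; Trabd2b passed there but held no member), and 6 to 27 leaving out libraries, so single calls and the split of higher against lower depend on list thresholds and libraries. The replicate block left 82 loci and 13 with a member; same-numbered libraries of the 2 groups deviated together with correlations of -0.07, 0.0001 and -0.01, so the numbers do not pair them.

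A required overlap of 50% changes nothing, since each region is merged from the intervals. Windows of 100 bases around summits were not run, since no genome was used. With list thresholds and no read numbers, regions below the caller's limit cannot be told from closed ones.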

Other observations

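Chromosome X had the highest share of its regions open in 3 of 3 WT in the set, 69 of 1268 (5.44%, 95% Wilson interval 4.32% to 6.83%), against a median of 3.74% over the 20 chromosomes and 2.73% on chromosome 16, the lowest. The lists held 41, 127 and 56 Y intervals in K5SmoM2 libraries 1, 2 and 3, 67, 39 and 18 in K5SmoM2Sox9cKO, and 90, 31 and 31 in WT, and the part of sex was not tested.

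The nearest interval of the 6 SmoM2 libraries lay a median of 5319 bp from a member, within 500 bp for 4.65% of members and within 1 kb for 13.2%. For the opposite pattern and WT intervals these values were 6731 bp, 3.04% and 8.77%, and the rule keeps all of these distances above 0. The outermost WT summits of a member lay a median of 130 bp apart, against 98 bp in regions open in all 9 adult libraries.

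Other loci from the lists also had fewer regions in both SmoM2 groups than in WT. Hand2, a transcription factor gene of heart and sympathetic neurons, had 1, 4 and 4 regions in K5SmoM2, 2, 1 and 2 in K5SmoM2Sox9cKO, and 8, 9 and 11 in WT. Kcnk10, a potassium channel gene, had 0, 2 and 3 in K5SmoM2, 3, 2 and 2 in K5SmoM2Sox9cKO, and 7, 10 and 8 in WT. Sox11, a SoxC gene of progenitors, had 0, 0 and 0 in K5SmoM2, 0, 1 and 0 in K5SmoM2Sox9cKO, and 2, 5 and 4 in WT. These are descriptions of loci chosen for their members.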
